A study of Brassica oleracea var. italica with 5 samples.

Results

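Imbibed seeds and the cotyledons of 7 day sprouts of broccoli (*Brassica oleracea* var. *italica*, cultivar Qingxiu) were compared, 1 library against 1 library, at the level of unigenes. A unigene is the assembled transcript kept for each best database match. The comparison took every unigene with at least 20 mapped reads in the seed and the 7 day library together, which left 17012 of the 19441 unigenes, 16597 of them with a match in *Arabidopsis*. A gene symbol below always stands for the broccoli unigene that matched that *Arabidopsis* gene.

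The study followed sprouts from seed to the first true leaves and sequenced 5 tissues, which were seeds, cotyledons at 3, 7 and 11 days, and euphyllas (first true leaves) at 11 days. All plants were wild-type and untreated, and grew in soil mixture under long days. The seeds, labelled as germinated and day 0, were not dry, since they had been surface-sterilised, washed and held overnight on moist paper. Each library was made from a pool of 3 biological replicates, so no spread between plants can be given, no test was run, and every statement compares these libraries and not the conditions.

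Germination starts with the uptake of water and ends when the root tip emerges, and abscisic acid holds it back while gibberellin promotes it. The young seedling then lives on stored protein and oil, the latter turned into sugar by way of peroxisomal fatty acid breakdown, the glyoxylate cycle and gluconeogenesis. In Brassicaceae the cotyledons that held these reserves spread, turn green and take over photosynthesis, and the tissue carries glucosinolates, sulfur compounds that myrosinases split when cells are broken.

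Mapped reads summed to 9563149 in seeds and 10285969 in 7 day cotyledons. Ratios are between counts normalized by the authors' size factors, which made 1 read worth 0.708 in seeds and 1.05 at 7 days. Parentheses after a fold hold the exact 95% interval, from the Clopper-Pearson limits of the split of reads between the libraries, which covers counting error only. Counting the mates of a pair apart, or reads placed more than once, makes it too narrow. Calls of higher or lower were made where the ratio was at least 2 and the interval excluded 1, and a count of 0 was set to a floor of 3 reads, so that the fold is then a lower bound. In tissue samples, fewer cells of a type and less RNA per cell cannot be told apart.

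Of the 17012 unigenes, 4934 (29.0%) were called higher and 4404 (25.9%) lower in 7 day cotyledons, and 7674 were not called. At least 10-fold differences were more often upward, with 1671 unigenes higher and 707 lower, and at least 100-fold differences numbered 230 and 81. In 290 unigenes called higher the seed library held no read, and in 322 called lower the 7 day library held none. The median log2 ratio was -0.05 and the middle of the distribution ran from -1.04 to 1.28, the lower and upper quartiles. Scaling by total reads in place of the size factors moved every log2 ratio by -0.68, gave 3490 higher and 7273 lower, and so took the upward share of the calls from 52.8% to 32.4%. Under that scaling the higher calls given below for *CYP707A3*, *NCED9*, *GAI*, *AT2G44060*, *LEA14*, *XTH22*, *CAT2*, *ATPS1*, *BCAT3*, *GSTF11*, *MYB34*, *APK1*, *GTR1*, *MVP1*, *F3H*, *ZDS*, *ABCG12*, *MUM4*, *SHR*, *SPCH*, *ERL1*, *HB8*, *RPL26A*, *RBCL* and *PSBB* were lost. Lower calls were gained by *MLS*, *ATPD*, *HSC70-2*, *GWD1*, *FMO-GSOX5*, *IPMI2*, *MYB51*, *IGMT1*, *SOT18*, *GTR2*, *SCR* and *KNAT1*, and by *Hsp81.4*, *A2*, *A3* and *RPL35AA* among the most read seed unigenes.

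A member with under 20 reads at 7 days passed the minimum through its seed reads, so that a lower call mostly had to follow. This held for 11 of the 12 lower calls among storage and oil body proteins, 18 of 19 among late embryogenesis proteins, 7 of 10 among heat shock proteins, 8 of 12 among gibberellin genes, 5 of 11 among abscisic acid genes, 21 of 27 in the plastid genome and 13 of 16 in the mitochondrial genome. In the other direction it held for 10 of the 46 higher calls among antenna and photosystem genes and 3 of 21 in the Calvin cycle, which had under 20 reads in seeds. It also held for 5 of 7 higher calls among flavonoid, 5 of 8 among stomatal lineage and 4 of 7 among aliphatic glucosinolate genes. In the myrosinase system it held for 4 of 9 higher and 3 of 5 lower calls. Of lower calls it held for 3 of 4 among evening clock and 2 of 3 among indolic glucosinolate genes. Further lists held some such calls too.

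**Figure D1:**
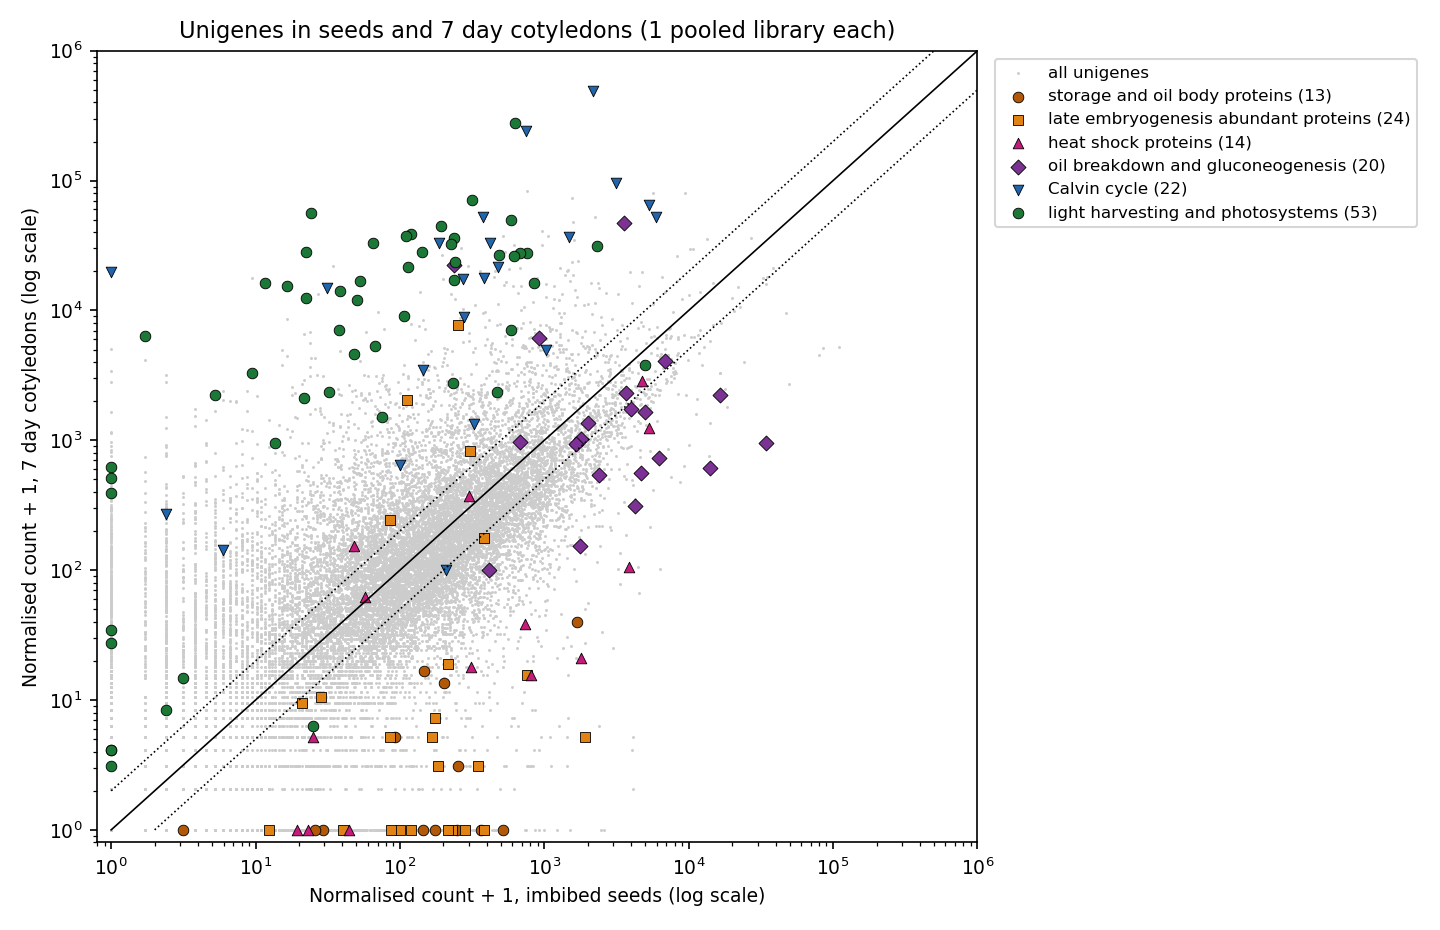
Normalized count plus 1 of every unigene in imbibed seeds (horizontal) and 7 day cotyledons (vertical), both axes logarithmic, with 6 gene lists coloured. Photosystem and Calvin cycle members lie far above the diagonal, storage and late embryogenesis members lie mostly on or near the bottom edge, and dotted lines mark a ratio of 2 in each direction.

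Levels per kb of unigene separated the libraries at the top of their ranges. At 7 days the highest was *RBCS3B*, a small subunit of Rubisco, with 291300 normalized reads per kb against 914 in seeds. It was followed by *RCA*, the Rubisco activase, with 101000 against 450, and *LHCB2.3*, an antenna protein of photosystem II, with 74200 against 30.6. *LHCB1.4*, *LHCA2*, *FD2*, *GAPB*, *LHCB3* and *PSAK*, all of photosynthesis, and *PRP4*, a proline-rich cell wall protein, filled the first 10 places. The unigene of *RCA* alone took 4.51% of all reads of the 7 day library, and the 20 most read unigenes took 18.9%, against 11.1% in seeds.

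In seeds the highest level per kb, 21620, belonged to a unigene of 3945 bp matched to an rRNA intron-encoded homing endonuclease, and the third, 12120, to a unigene of 9117 bp matched to a hypothetical protein. Most of the other places went to protein synthesis and folding. *Hsp81.4*, an HSP90 chaperone, had 13390 per kb in seeds and 7217 at 7 days. The elongation factors *A2* and *A3* had 11350 and 9563 per kb in seeds, against 6348 and 4918 at 7 days. The ribosomal protein unigenes *SAG24*, *RPL35AA* and *ARP1* lay between 8195 and 9731 per kb, and *ATGSTU21*, a glutathione S-transferase, had 9108 against 1274. A unigene of 8477 bp matched to *RPT6A* had 9465 per kb. It and the homing endonuclease and hypothetical protein unigenes together took 4.08% of the seed reads and 0.138% of the 7 day reads, and were lower at 7 days by 17.67, 16.6 and 21.1-fold. The 8477 bp unigene is longer than the 3074 bp of *RPT6A*, a proteasome ATPase, so its reads cannot be read as the level of that gene.

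Reserve and oil body proteins, which fill the storage vacuoles and coat the oil droplets of the embryo, were higher in the seed library than at 7 days. Of 21 genes in the list 13 had a unigene, and their normalized counts summed to 3876 in seeds and 73.5 at 7 days. Of the 12 that passed the minimum, 11 did so through their seed reads, and all 12 were called lower. *OLEO4*, an oleosin of the oil body surface, had 2376 reads in seeds and 37 at 7 days, 43.3-fold lower (31.3 to 61.6). *CLO1*, a caleosin of the same surface, had 358 and 2 reads. *PAP85*, a vicilin-like globulin, had 729 and 0 reads and was at least 164-fold lower, and *CRA1*, a cruciferin, had 516 and 0 and was at least 116-fold lower.

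Late embryogenesis abundant proteins, which protect cells during drying, were mostly called lower, but their summed level was not. Of 41 genes 24 had a unigene, and their normalized counts summed to 6467 in seeds and 11115 at 7 days. The minimum was passed by 23, of which 19 were lower and 4 higher. Of the 19 lower, 18 had under 20 reads at 7 days and passed through their seed reads. *EM6* had 2696 reads in seeds and 4 at 7 days, 454-fold lower (177 to 1670), and *SAG21* had 1069 and 14. The unigenes of *AT3G53040* and *AT1G02820* had 537 and 538 reads in seeds and 0 and 166 at 7 days, lower by at least 121-fold and by 2.18-fold. The 4 higher members were the dehydrins *ERD14*, with normalized counts of 252 and 7766 (30.8-fold, 27.7 to 34.4), and *ERD10*, with 110 and 2035, and *AT2G44060* and *LEA14*, with folds of 2.72 and 2.86. The list's median log2 ratio was -5.34, or -4.78 with unigenes without reads set at their bound.

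Enzymes that turn stored oil into sugar were at high levels in seeds and mostly lower at 7 days. Of the 20 members, all with a unigene, 11 were lower, 3 higher and 6 not called. *ICL*, the isocitrate lyase of the glyoxylate cycle, fell from a normalized count of 34489 to 948.5, 36.4-fold lower (34.0 to 38.9). *PCK1*, which starts gluconeogenesis, had 14053 and 614, 22.9-fold lower (21.1 to 24.9). *KAT2*, the thiolase of fatty acid breakdown, had 16464 and 2216, and *PMDH1*, a peroxisomal malate dehydrogenase, had 6266 and 730. *MLS*, the malate synthase that works beside *ICL*, had 6844 and 4077, a ratio of 0.596 that was not called. The lipase *SDP1*, which opens the oil droplet, had 676 and 975 and was not called.

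The 3 members called higher all had unigenes longer than their gene. *PMDH2*, the second peroxisomal malate dehydrogenase, had 236 and 22322, 94.5-fold higher (84.8 to 106). *ACX2*, an acyl-CoA oxidase, had 3544 and 46872 on 4717 bp against a gene of 2884 bp. *CFBP*, the cytosolic fructose bisphosphatase that also serves sucrose synthesis, had 913 and 6169. In 3 day cotyledons *ICL* (55713), *PCK1* (23524) and *MLS* (23376) stood above both seeds and 7 days, so the seed to 7 day ratio spans a maximum between them.

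Proteases were mixed, with 6 of 11 tested members lower and 3 higher. *RD19*, a papain-type protease, had 2841 in seeds and 215 at 7 days, and *CP1* had 1399 reads in seeds and none at 7 days (at least 314-fold lower). *BETA-VPE*, the vacuolar enzyme that processes seed storage proteins, had 657 and 27.3, 24.1-fold lower (16.3 to 37.0), and *ALP* had 1337 and 546. The higher members were *RD21A* with 151 and 3573, *PASPA1* with 66.5 and 247, and *CEP3* with 2.83 and 111. In the small list of raffinose sugars, *AGAL1*, an alpha-galactosidase, was 4.84-fold lower, *SIP1* was 12.3-fold higher, and the seed peroxiredoxin *PER1* had 384 reads in seeds and none at 7 days.

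Abscisic acid and dormancy regulators included several unigenes read in seeds and not at 7 days. Of 22 members with enough reads 11 were lower and 4 higher, the latter all on unigenes longer than their gene. Of the 11 lower, 5 had under 20 reads at 7 days and passed through their seed reads. *AHG1*, a protein phosphatase that acts in abscisic acid signaling of seeds, had 3643 reads in seeds and 0 at 7 days, at least 818-fold lower. The seed transcription factors *ABI3* and *ABI4* had 457 and 649 reads in seeds and none at 7 days, and *SOM* and *MFT*, regulators of germination, had 454 and 81 against none. The kinases of the pathway were lower too, *SNRK2.2* with 1245 and 101 (12.3-fold, 10.1 to 15.3) and *SNRK2.3* with 1248 and 354. Unlike the genes without reads at 7 days, *SNRK2.2* was at 1977 in 11 day cotyledons, above its seed level, and *SNRK2.3* was at 716.

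Genes of abscisic acid turnover differed among themselves. *CYP707A2* and *CYP707A1*, which break the hormone down, had 1546 and 1003 in seeds and 627 and 145 at 7 days, while *CYP707A3* of the same family was 2.49-fold higher (2.28 to 2.72). In 11 day cotyledons *CYP707A1* was at 1102 and *CYP707A2* at 41.8. *NCED3*, a rate-limiting enzyme of its synthesis, had 1 read in seeds and 156 at 7 days, and *NCED9* had 8 and 15. The phosphatase *AHG3* had 287 and 1598, 5.56-fold higher, in contrast to *AHG1*. *ABI1*, *ABI2* and *HAB1*, phosphatases of the same clade, had ratios from 0.990 to 1.56 and were not called, nor was *HAB2* with 173 and 328, while *HAI2* of that clade was 7.41-fold lower (242 and 22 reads).

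Gibberellin genes were mostly called lower at 7 days, 12 of 19 against 3 higher, with a median log2 ratio of -2.23. Over all unigenes 25.9% were lower. Of the 12, 8 had under 20 reads at 7 days and passed the minimum through their seed reads, so that their lower calls mostly had to follow. The DELLA repressors split. *RGL2*, the main repressor of germination among them in *Arabidopsis*, had 400.5 in seeds and 14.7 at 7 days, 27.2-fold lower (16.1 to 50.1), and *RGL1* had 515 and 24.2, while *GAI* was 2.59-fold higher (2.36 to 2.84) and *RGA* had a ratio of 0.891. The 3 receptors were all lower, *GID1A* with 297 and 16.8, *GID1B* 8.53-fold and *GID1C* 2.53-fold. Synthesis was lower at *KO* (8.20-fold), *KAO2* (8.08-fold), *CPS* (5.68-fold), *GA20OX1* (5.05-fold) and *GA3OX1*, which makes the active hormone (121 and 6.30, 19.2-fold). Against this direction stood *KS* with 6 and 50 reads and *GA2OX6*, an inactivating enzyme, with 32 and 140.

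**Figure D2:**
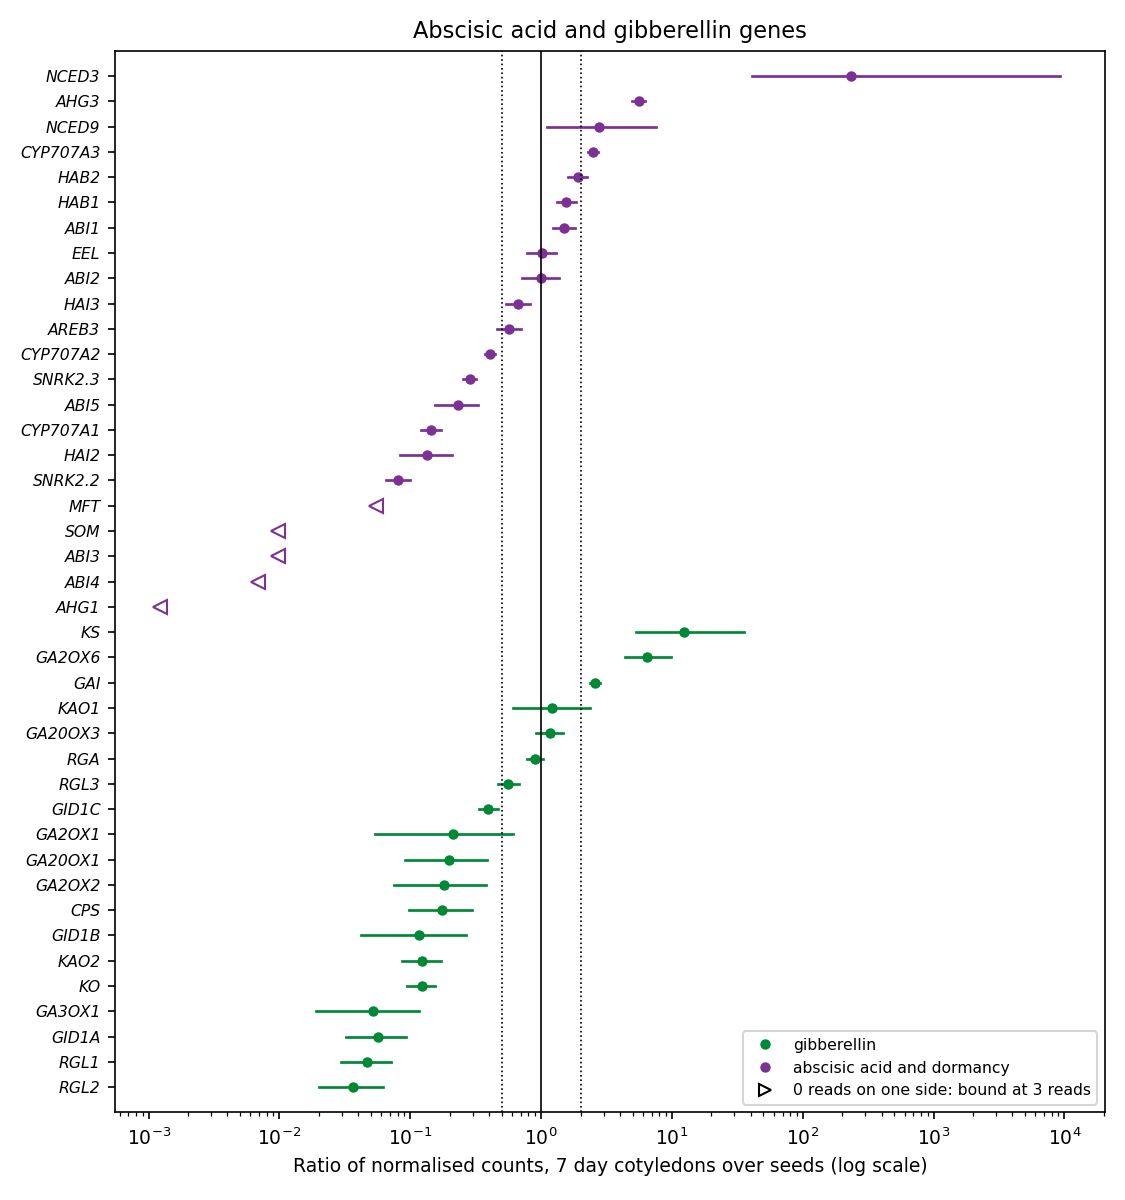
Ratio of normalized counts, 7 day cotyledons over seeds, on a logarithmic axis, for each abscisic acid and gibberellin gene with at least 20 reads. Points carry exact 95% intervals for counting error, open triangles are bounds where a library had 0 reads, and most points of both groups lie left of 1, with *NCED3*, *KS*, *GA2OX6* and *AHG3* at the far right.

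Heat shock proteins, chaperones that many seeds accumulate late in development, were lower in 10 of 14 and higher in 1. Of the 10, 7 had under 20 reads at 7 days, so that their lower calls mostly had to follow. *HSP70* had 3849 in seeds and 104 at 7 days, 37.0-fold lower (30.3 to 45.6). The small heat shock proteins *HSP23.6* and *HSP17.6C* had 2551 and 1043 reads in seeds against 19 and 36, and *HSP90.1* was 4.27-fold lower (4.01 to 4.54). *HSFA2*, a heat shock transcription factor, was the exception with 46.7 and 153. *HSC70-2* had 4739 and 2838 and was not called.

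Several more genes stood among the largest falls of unigenes with at least 200 reads. The unigene of *AT2G47780*, annotated as a rubber elongation factor protein, had 5800 reads in seeds and 1 at 7 days, and 3907-fold less in normalized counts. *LCR67*, a cysteine-rich peptide of the defensin family, had 5703 and 3 reads (1281-fold), and the papain protease of *AT3G54940* had 5800 and 4 (977-fold). *PER62*, a peroxidase, and *EXPA2*, an expansin of germinating seeds in *Arabidopsis*, had 3490 and 2119 reads in seeds and none at 7 days. The others of the first 10 after *AHG1* were *AT3G19920* (678-fold), *AT1G60750* (585-fold), *AT1G64110* (532-fold) and *AT1G56300* (470-fold). *AT2G47780* and *AT1G64110* were still at 4688 and 1958 in 3 day cotyledons, whereas *AHG1*, *PER62* and *EXPA2* had no read there. *AT1G56300* was near 0 only at 7 days. It had 494 in seeds, 172 and 351 in 3 and 11 day cotyledons and 205 in euphyllas.

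Photosynthesis made the largest coordinated difference in the opposite direction. Of the 56 antenna and photosystem genes 53 had a unigene and 48 passed the minimum, of which 46 were higher and 1 lower, with a median log2 ratio of 7.21. Their normalized counts summed to 15847 in seeds and 1101500 at 7 days. *LHCB1.4*, an antenna protein, had 622 and 277550, 446-fold higher (418 to 477), and *LHCB5* had 316 and 70852 (224-fold). *LHCA3*, of the photosystem I antenna, had 584 and 49290 (84.3-fold), and *LHCB2.3* had 23.4 and 56541 (2421-fold). *PSAH2*, *PSAO* and *NDF6*, which belong to photosystem I and the chloroplast NDH complex, had 1, 15 and 2 reads in seeds and 6101, 15507 and 3033 at 7 days.

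The exceptions in this group were few. *LHCB4.2* had 34 and 5 reads, 4.58-fold lower (1.78 to 15.0), while its paralogs *LHCB4.1* and *LHCB4.3* were 193-fold and 54.7-fold higher. *ATPD*, a subunit of the chloroplast ATP synthase, had 4981 and 3778 and was not called. The 5 members under the minimum, among them *PSBR*, *FNR1* and *PSAD2*, had short unigenes of 219 to 570 bp.

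Calvin cycle unigenes were higher in 21 of 22. *RCA* had normalized counts of 2172 in seeds and 487310 at 7 days, 224-fold higher (217 to 233), and *RBCS3B* had 751 and 239190, 319-fold higher (300 to 339). *GAPA2* had 3116 and 96480, and *FBA2* had 5345 and 65188. *CA2*, a carbonic anhydrase, had no read in seeds and 18690 at 7 days, at least 9248-fold higher and the largest ratio among *Arabidopsis*-matched unigenes of 200 reads or more. *RBCS1B* went the other way with 206 and 99.8, 2.06-fold lower (1.63 to 2.63), on a unigene of 2015 bp against a gene of 1130 bp. Long unigenes were common in these lists, such as those of *LHCB1.4* (5163 bp against 1007), *GAPA2* (9637 against 1950), *RCA* (4824 against 2802) and *FBA2* (4720 against 2266), whose reads may include those of other genes. Among unigenes no longer than their gene, 15 of 16 antenna and photosystem members were higher, with a median log2 ratio of 8.37, and 8 of 8 Calvin cycle members, with 6.17. As the small subunit genes are near-identical, reads may have been shared among their unigenes.

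Photorespiration, which recycles the product of oxygenation by Rubisco, was higher in 11 of 12. *HPR1*, the peroxisomal hydroxypyruvate reductase, had 12 reads in seeds and 17055 at 7 days, 2110-fold higher (1210 to 4080). *GOX1*, the glycolate oxidase, had 1587 and 47575, *GLDP1* of the glycine decarboxylase had 9376 and 80637, and *AGT1* had 612 and 31776. Among the catalases *CAT2* was higher (13420 and 35408, 2.64-fold) and *CAT3* was higher (4.19-fold), while *CAT1* was lower, with 3570 and 530 (6.73-fold, 6.14 to 7.39).

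**Figure D3:**
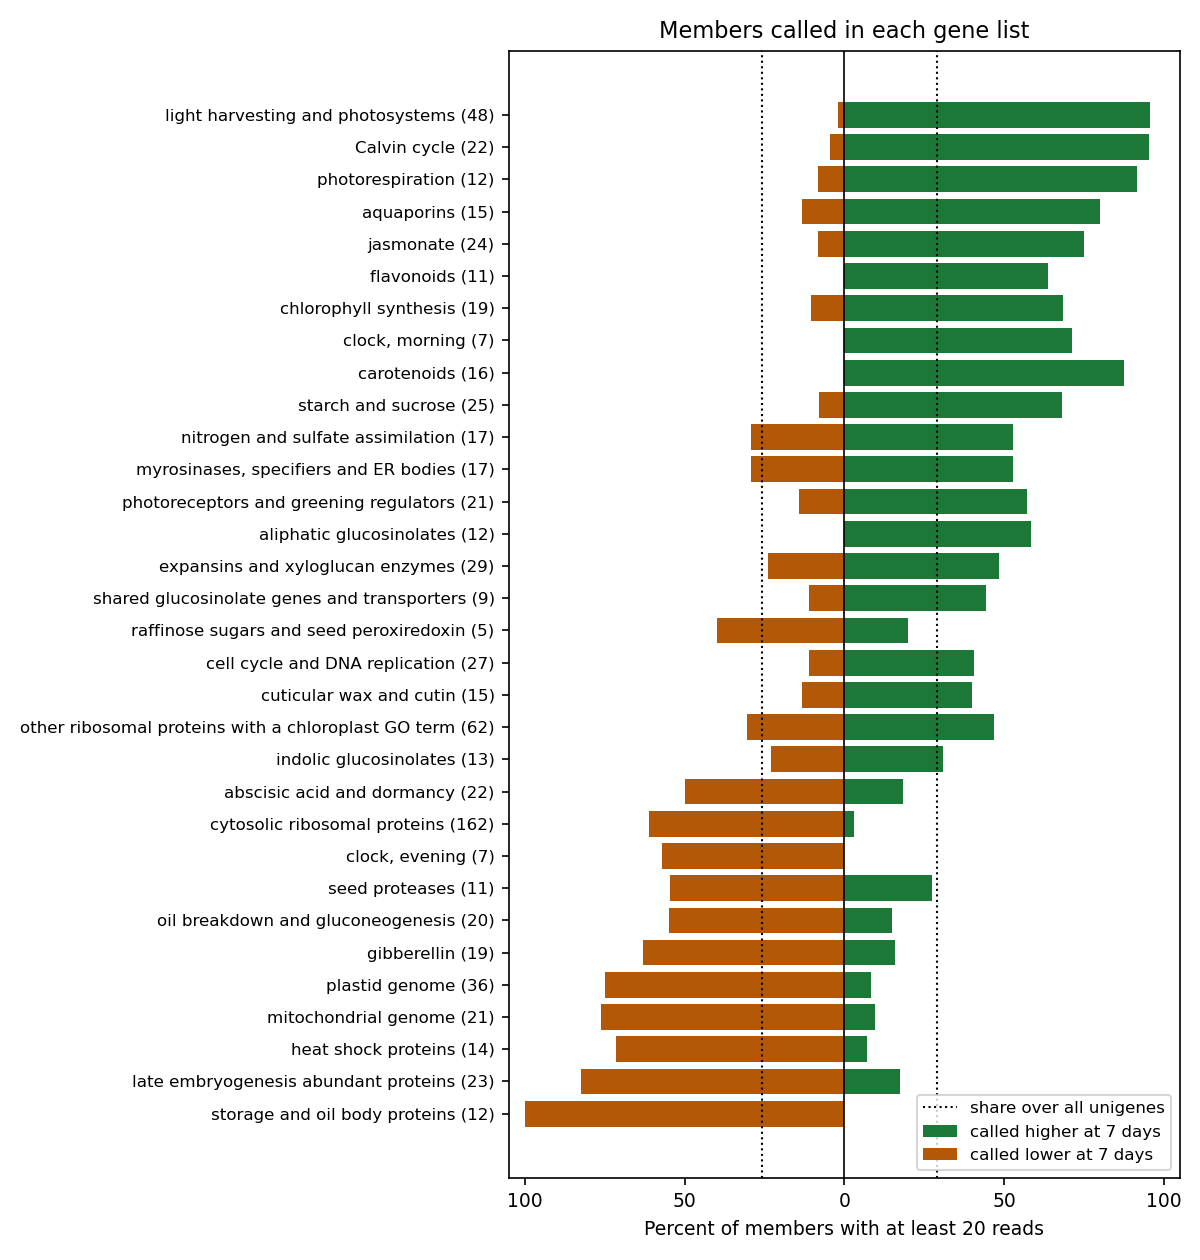
Percent of the members with at least 20 reads that were called lower (left) or higher (right) at 7 days in each gene list, ordered by median log2 ratio, with the number of members tested in brackets. Dotted lines mark 29.0% higher and 25.9% lower over all unigenes, and the photosynthesis lists at the top and the seed lists at the bottom pass these lines most widely.

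Pigment synthesis was higher with a marked exception. Of 19 chlorophyll genes 13 were higher and 2 lower. *GUN5*, a subunit of magnesium chelatase, had 517 and 37282 (72.1-fold), *CHLP* had 507 and 28781, *CRD1* had 676 and 21062 and *CAO*, which makes chlorophyll b, had 135 and 7644. *PORB*, the light-dependent protochlorophyllide reductase, was lower, with 46947 and 9493 (4.95-fold, 4.84 to 5.06), on a unigene of 6142 bp against a gene of 1807 bp. Its relative *PORC* was 20.8-fold higher, and *HEMF1* was 2.44-fold lower. Among 16 carotenoid genes 14 were higher and none lower, led by *ZEP* (1027 and 15943), *ZDS* (904 and 2597), *CCD4* (19.8 and 2696) and *PDS* (248 and 1484).

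Light receptors and greening regulators were higher in 12 of 21 and lower in 3. The blue light receptors *PHOT1* and *CRY1* had 538 and 404 in seeds and 1859 and 1878 at 7 days. *GLK1* and *GLK2*, which switch on chloroplast genes, were 24.3-fold and 17.3-fold higher, and *PIF5* and *PHOT2* were 35.0-fold and 22.4-fold higher. The 3 lower members were the phytochrome *PHYA* (919 and 390), *PIF1* (506 and 164) and *HY5* (450 and 114, 3.93-fold). *PIF1* represses germination in the dark, and *HY5* acts in the response to light. *COL6*, a B-box protein, had 2 reads in seeds and 2688 at 7 days.

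Carbon storage and export were mostly higher, 17 of 25 against 2 lower. *TPT*, the triose phosphate exporter of the chloroplast, had 541 and 16700, *GBSS1*, a starch synthase, had 801 and 8085, and *APL1* had 15.6 and 4439 (285-fold, 188 to 456). *SEX4*, of starch breakdown, was 3.89-fold higher, and *GWD1* and *DPE1* of the same route had ratios of 0.543 and 0.849. The sucrose synthases *SUS1* and *SUS3* were lower, 3.14-fold and 2.92-fold. *SWEET11* and *SWEET12*, sucrose exporters of nearly the same unigene length, were 13.2-fold and 9.38-fold higher, and their reads may have been shared.

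Nitrogen and sulfate assimilation differed from gene to gene, with 9 higher and 5 lower of 17 (7 and 7 under scaling by total reads). The plastid enzymes *GLU1* and *GLN2* had 1067 and 83.5 in seeds and 37507 and 2254 at 7 days, and nitrate reductase *NIA1* and nitrite reductase *NIR1* had 1578 and 1260 against 18842 and 9637. The cytosolic glutamine synthetases *GLN1;1* and *GLN1;3* were lower, with 12737 and 11345 in seeds and 5218 and 2068 at 7 days. *ASN1*, an asparagine synthetase, was 6.81-fold lower and the ammonium carrier *AMT1;1* 5.14-fold lower. *ATPS1*, which activates sulfate, was 3.09-fold higher, *SULTR2;1*, a sulfate carrier, had 0 and 517 reads, and *SULTR1;1* had 37 and 0.

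Glucosinolate synthesis was read at moderate depth. Members were taken by the best match in the annotation, with no cutoff on sequence identity. The paper applied such a cutoff, reported *CYP81F2* and *UGT74B1* as not found, and among the MYB regulators found only *MYB29* and *MYB51*. Values below for *CYP81F2*, *UGT74B1*, *MYB28* and *MYB34* are therefore of unigenes that the paper did not list as these genes. For the aliphatic branch, made from methionine, 12 of 21 genes had a unigene, of which 7 were higher and none lower. *CYP83A1*, a core cytochrome P450 of this branch, had 1.42 in seeds and 922 at 7 days, 652-fold higher (180 to 5390) on 2 and 878 reads. *GSTU20* had 1097 and 3963, *BCAT3* had 275 and 723 and *FMO-GSOX2*, which oxidises the side chain, had 9.91 and 535 (54.0-fold). The regulators *MYB28* and *MYB29* had 3 and 0 reads in seeds and 97 and 50 at 7 days. *GSTF11* lay at the limit of the call, with 23 and 31 reads. *SOT17* (236 and 307), *FMO-GSOX5* (42.5 and 22.1), *IPMDH1*, *IPMDH3* and *IPMI2* were not called.

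The indolic branch, made from tryptophan, showed no common direction, with 4 higher, 3 lower and 6 not called of 13. Its entry enzymes *CYP79B2* and *CYP79B3* had 87.0 and 0.708 in seeds and 830 and 282 at 7 days. *GSTF10* was 4.28-fold higher and the regulator *MYB34* 2.35-fold. *CYP81F2*, *CYP81F1* and *CYP81F4*, which modify the indole ring, were lower by 239-fold (102 to 738), 17.5-fold and 2.16-fold, and *CYP81F2* alone had 1777 reads in seeds and 5 at 7 days. *CYP83B1*, *SOT16*, *TSB1*, *MYB51*, *IGMT1* and *CYP81F3* had ratios from 0.589 to 1.91. Under scaling by total reads the branch gave 3 higher and 5 lower.

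Genes that serve both branches were higher at *UGT74B1* (171 and 820), *APK2* (13.4 and 148), *APK1* (181 and 570) and the transporter *GTR1* (272 and 605). *GSH1*, of glutathione synthesis, was lower with 4680 and 1898 (2.47-fold). *SUR1* (179 and 257), *GGP1* (780 and 1406.5), *SOT18* (79.25 and 53.6) and *GTR2* (1535.5 and 1155) were not called. Scaling by total reads turned the count to 2 higher and 3 lower.

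The myrosinase system, which splits glucosinolates and directs the products, held pairs of related genes called in opposite directions. Of 17 members 9 were higher and 5 lower. *PYK10* and *NAI2*, a beta-glucosidase and a structural protein of ER bodies, had 1072 and 628 reads in seeds and 2 and 0 at 7 days, lower by 361-fold (99.7 to 2980) and by at least 141-fold. *BGLU18* and *TSA1*, which have the matching roles in ER bodies of wounded leaves of *Arabidopsis*, had 11 and 9 reads in seeds and 2280 and 912 at 7 days, higher by 308-fold (172 to 617) and 150-fold (78.9 to 330). The myrosinase-binding proteins *MBP1* and *MBP2* had normalized counts of 133 and 259 in seeds and 1.05 and 8778 at 7 days.

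*TGG2*, a leaf myrosinase, had 38.2 and 1590, 41.6-fold higher (31.7 to 55.7), whereas *TGG1* had 55.2 and 74.6 and *PEN2*, an atypical myrosinase, 248 and 279, neither of them called. *ESM1*, which favours isothiocyanates among the products, was 61.4-fold higher (43.2 and 2650), and *ESP*, which favours nitriles and epithionitriles, had 275 and 225. The nitrile specifiers *NSP1* and *NSP5* were lower, 5.03-fold and 4.94-fold. *NSP2* and *NSP4* were 24.7-fold and 29.8-fold higher on unigenes of 4249 and 4237 bp, which may share reads. *NAI1*, the regulator of ER bodies, was 5.28-fold higher and *MVP1* was 2.85-fold higher.

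**Figure D4:**
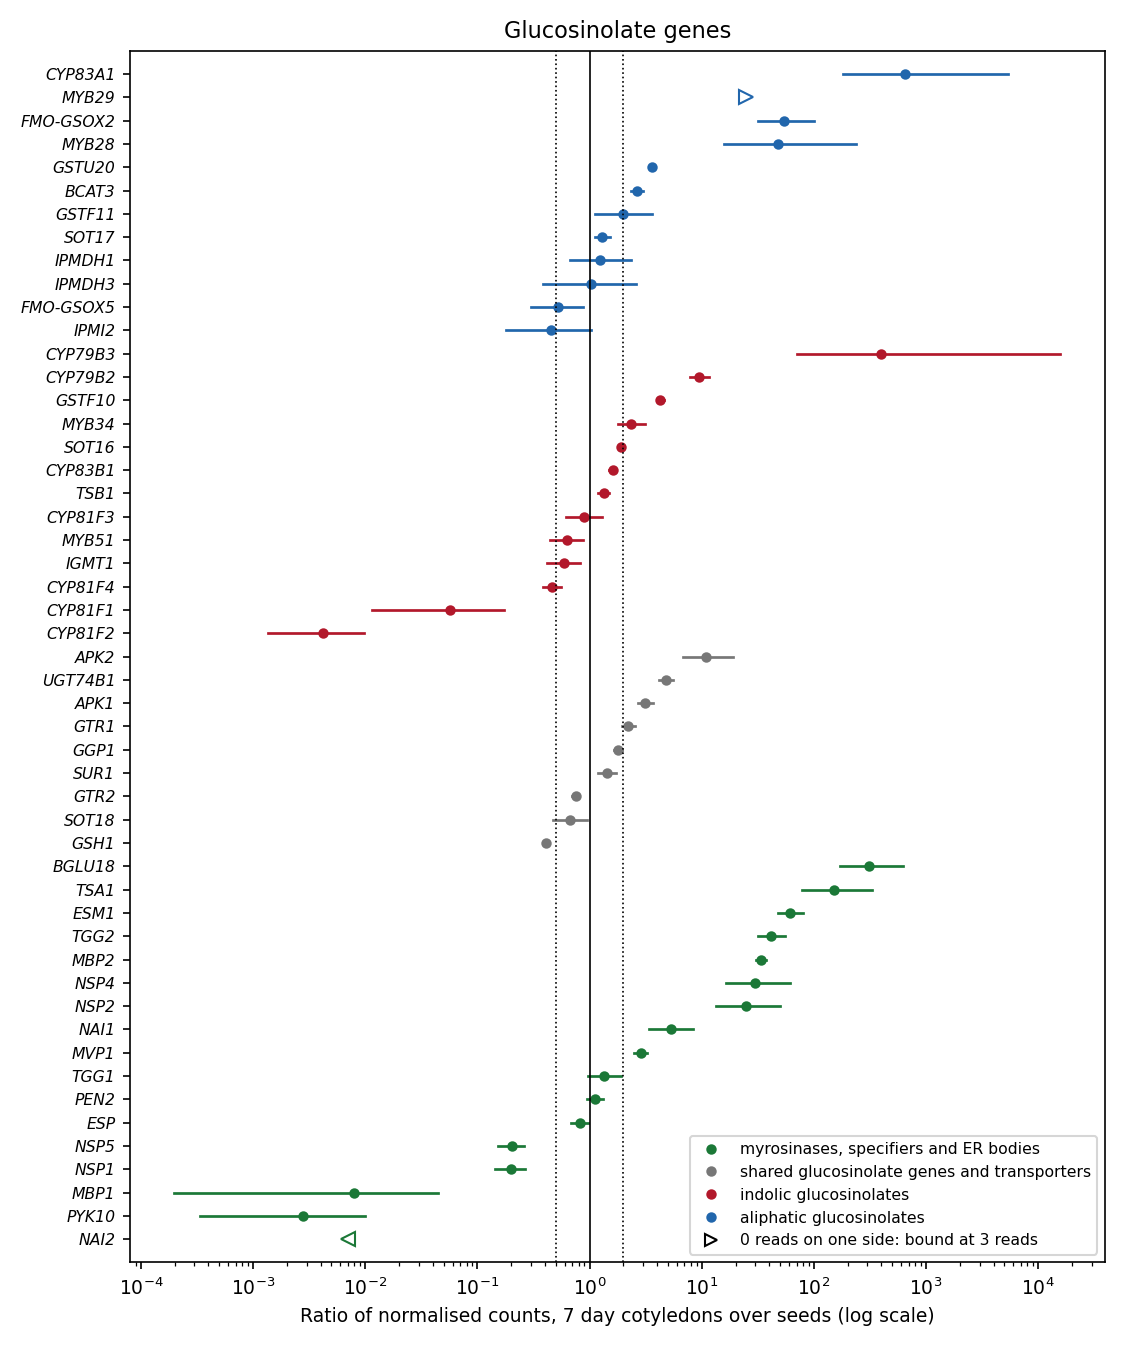
Ratio of normalized counts, 7 day cotyledons over seeds, on a logarithmic axis, for every glucosinolate gene with at least 20 reads, coloured by pathway branch. Points carry exact 95% intervals for counting error and open triangles are bounds; aliphatic genes lie mostly at or right of 1, indolic genes on both sides, and *PYK10*, *NAI2* and *MBP1* of the myrosinase system at the far left.

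Jasmonate genes, which act in wound response, were higher in 18 of 24 and lower in 2. The synthesis genes *AOS*, *OPR3* and *OPCL1* had 234, 362 and 93.4 in seeds and 1847, 1230 and 1037 at 7 days. *JAZ1* and *JAZ6*, repressors that jasmonate itself induces, had 577 and 77.8 against 2032.5 and 2615.5. *LOX3* and *LOX4*, on unigenes of nearly the same length and read count, were 33.8-fold and 35.3-fold higher and may share reads. *JAR1*, which makes the active conjugate, was 4.98-fold lower (4.36 to 5.71) and *CYP94C1*, which oxidises it, 4.28-fold lower. In 11 day cotyledons *AOS*, *OPR3* and *OPCL1* stood at 24458, 10112 and 14440.

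Flavonoid genes were higher in 7 of 11 and lower in none. *FLS1*, *DFR* and *LDOX*, which lead to flavonols and anthocyanins, had 29.0, 12.7 and 4.25 in seeds and 481, 222 and 170 at 7 days, and *F3H* had 241 and 558. *CHS*, the entry enzyme, had 809 and 659 and was not called, although it reached 7114 in 3 day cotyledons. Of 15 wax and cutin genes 6 were higher and 2 lower. *CER1*, which forms alkanes, had 763 and 3973, *CER4* had 77.8 and 1918, *WSD1* had 19.8 and 959 and *ABCG12* had 223 and 497, while *KCS6* (691 and 157) and *LTPG1* (406 and 158) were lower.

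Genes of cell expansion differed by family member. Aquaporins were higher in 12 of 15, with *TIP1;2* (2350 and 16202), *PIP2;1* (3239 and 13380), *PIP1;2* (1628 and 14357) and *PIP2;2* (1873 and 11098) among the most read and *TIP1;1* (224 and 13356) 59.5-fold higher. The lower members were *TIP3;1*, the vacuolar aquaporin of seeds, with 452 reads and none at 7 days, and *TIP4;1* (2.53-fold). Expansins and xyloglucan enzymes were higher in 14 and lower in 7 of 29. *XTH9* had 1383 and 18864, *XTH22* 699 and 1777, *EXPA10* 224 and 1243, and *EXPA6* 13.4 and 940. Besides *EXPA2*, the lower members were *EXPA3* (4.01-fold), *EXPA9* (7.58-fold), *EXPA20* (4.12-fold), *XTH33* (24.2-fold), *XTH15* (5.76-fold) and *XTH5* (409 reads and none). *XTH6*, outside the list, had no read in seeds and 3238 at 7 days, and the same held for *NMT3*, a methyltransferase, and the unigene of *T5J17.140*, with 4773 and 2693 reads at 7 days.

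Cell cycle genes stood between these extremes, with 11 higher, 3 lower and 13 not called of 27. *MCM2*, of the replicative helicase, had 741 and 3855 on a unigene longer than its gene, and the other 5 subunits *MCM3* to *MCM7* had ratios from 0.632 to 2.03. *CYCD3;1* and *TSO2* were 8.59-fold and 4.05-fold higher, and *HIK*, named after its value was seen, 116-fold. Of the 11 higher calls 4 had under 20 reads in seeds. *PCNA1*, *RNR1* and *CYCD2;1* were 3.24-fold, 2.17-fold and 2.27-fold lower. Under scaling by total reads the list gave 9 higher and 8 lower.

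Ribosomal proteins that the annotation places in the cytosolic ribosome were lower in 99 of 162 and higher in 5, with a median log2 ratio of -1.14. Their normalized counts summed to 439110 in seeds and 241560 at 7 days. The differences were small and close to the limit, since a minimum ratio of 4 left 7 lower calls, and scaling by total reads gave 151. Of the 5 higher unigenes *PRPL11* is named as a plastid protein, and *RPL26A* had 6525 and 18192 on a unigene longer than its gene. Among 62 other ribosomal protein unigenes with a chloroplast term 29 were higher, such as *RPL35* (595 and 5399) and *RPL15* (703 and 5269). A further 19 of them were lower, including *RPS14*, named as a mitochondrial protein, with 79 reads in seeds and none at 7 days. By eggNOG class the unigenes of translation were higher in 13.6% and lower in 47.7% of 375, those of carbohydrate transport and metabolism higher in 43.3% and lower in 21.0% of 328, and those of the cytoskeleton higher in 35.2% and lower in 7.41% of 54.

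Most tested unigenes of the organelle genomes were called lower. Of 36 plastid genome unigenes 27 were lower and 3 higher, and of 21 mitochondrial ones 16 were lower and 2 higher. Among these lower calls 21 in the plastid and 13 in the mitochondrial genome had under 20 reads at 7 days, and mostly had to follow. *RBCL*, the large subunit of Rubisco, had 78.5 and 214 (2.73-fold higher), and *ATPB* and *PSBB* were 3.24-fold and 2.02-fold higher. *PSBC* and *PSBE* had ratios of 1.04 and 1.33 and were not called. *RPOB* and *PSAB* had 1395 and 332 in seeds and 183 and 63.0 at 7 days, and the mitochondrial *ATP1* and *COX1* had 399 and 262 reads in seeds against 3 and 2. The libraries were made from polyadenylated RNA, and organelle transcripts mostly lack such tails, so these reads are no measure of their full level. Many of these unigenes were longer than 1 gene, as *RPOB* with 16151 bp against 3218 bp. Of those no longer than their gene 6 of 6 plastid and 6 of 6 mitochondrial unigenes were lower. Each of these had under 20 reads at 7 days and passed the minimum through its seed reads. Their lower calls mostly had to follow and do not show whether unigene length matters.

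Clock genes divided by their time of day. Of 7 morning genes 5 were higher, *LHY* with 507 and 2690 (5.31-fold, 4.89 to 5.78), *CCA1* with 53.1 and 2250 (42.4-fold, 33.7 to 54.1), *PRR7* 4.86-fold, *RVE1* 15.5-fold and *RVE8* 8.51-fold. Of 7 evening genes 4 were lower and none higher. *TOC1* had 312 reads in seeds and 0 at 7 days, *LUX* 281 and 4, *ELF4* 148 and 3, and *GI* had 587 and 250. In 3 day cotyledons *LHY* and *CCA1* were at 7.12 and 10.2 and *TOC1* at 1167. The hour of harvest of each library is not given in the sources used here, so the age of the tissue and the hour cannot be told apart for these genes or for others that follow the day.

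**Figure D5:**
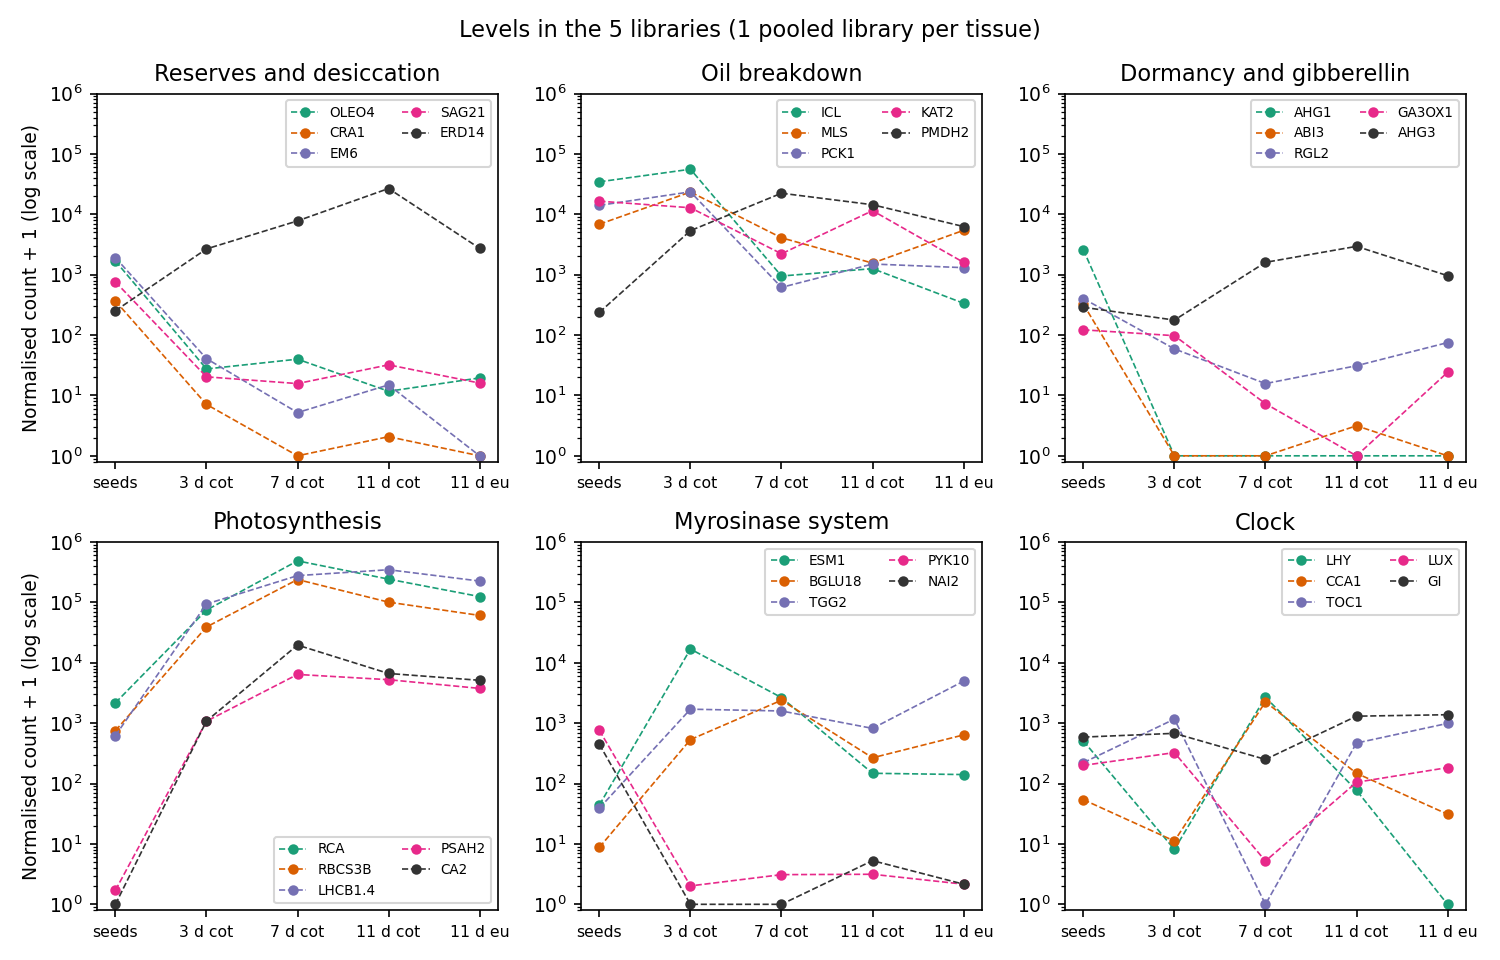
Normalized count plus 1 (logarithmic axis) of 5 genes from each of 6 groups in the 5 libraries, with 1 pooled library per tissue, no error bars, and dashed lines only to guide the eye. At 7 days the genes of the reserve and dormancy panels stand below their seed level, except *ERD14* and *AHG3*, which stand above it. *ICL*, *PCK1* and *MLS* peak in 3 day cotyledons, and at 7 days *LHY* and *CCA1* stand at their highest while *TOC1* is at 0 reads.

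Of 8 seed coat genes 4 had a unigene, summing to 294 in seeds and 556 at 7 days, with *MUM4* (2.31-fold), *MUM2* (4 and 181 reads) and *TTG2* (8 and 29 reads) higher and *AHA10* 2.03-fold lower. Root genes summed to 429 and 438. *SCR* had 328 and 257, *SHR* 67.9 and 181, *RHD6* had 42 reads in seeds and none at 7 days, and *PLT1* and *WOX5* had 3 and 1 reads in seeds and none at 7 days. The meristem genes *CLV1*, *KNAT1* and *STM* had 57.3, 38.2 and 2.83 in seeds and 662, 30.5 and 7.35 at 7 days. Stomatal lineage genes were higher in 8 of 10 and summed to 218 and 1013, *TMM*, *KAT1*, *ERL1*, *HT1*, *SPCH* and *EPF1* among them. *MYB60* and *SDD1* had no read in seeds and 135 and 109 at 7 days, *FAMA* and *MUTE* had ratios of 1.11 and 0.699, and *EPF2* was under the minimum. Of the vascular genes *APL* was 5.32-fold and *HB8* (124 and 248) just at the limit higher, *IRX3* had 171 and 235, and *XCP1* had no read in either library.

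Unigene length bore on several of these names. Of 6197 unigenes longer than the *Arabidopsis* gene they match, 34.4% were called higher and 24.8% lower, against 25.8% and 26.4% of the 10400 others. Some long unigenes are named for a locus next to a photosynthesis gene in *Arabidopsis*. The unigene named *RECA*, a DNA recombination protein, was 5801 bp against a gene of 3220 bp, lies beside *PSBR* there, and had 754 in seeds and 82734 at 7 days, 110-fold higher (103 to 117), while the *PSBR* unigene of 432 bp had 0 and 3 reads. Likewise *NIH* (14357 bp, beside *PSBP1*) was 14.4-fold higher, *ATRPA1A* (beside *PSBX*) 33.1-fold, *DCP1* (beside *PSAO*) 21.2-fold, and *AT5G66180* and *CPK28* (beside *FNR1*) 48.3-fold and 22.1-fold. These named examples were all called higher. Of 52 such long unigenes within 2 loci of a photosystem or Calvin cycle gene, 17 (32.7%) were higher and 15 lower. That share is near the 29.0% higher over all unigenes and the 34.4% over unigenes longer than their gene. At least 10-fold higher were 9 of the 52, against 1671 of all 17012 tested unigenes (9.82%). Whether such unigenes join transcripts of neighbouring genes was not tested, and their reads cannot be assigned to the named gene.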

How the data were processed

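Poly(A) RNA of 5 tissues was sequenced as paired reads from pools of 3 biological replicates. The authors assembled unigenes de novo with Velvet and Oases, named them by BLAST against *Arabidopsis* and then a wider protein set, and mapped reads with Bowtie. The deposited tables hold read counts per unigene, which are whole numbers, and a normalized signal that the authors made by dividing each count by a DESeq size factor. No versions of these tools were stated in the labels or methods. The authors' log2 ratio, p-value and false discovery rate columns and 20 RPKM columns were not used.

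Ratios of normalized counts, exact 95% binomial intervals and log2(normalized count + 1) values were computed from the counts with Python 3.11.15, numpy 2.4.6, pandas 2.3.3 and SciPy 1.17.1, and figures with matplotlib 3.10.9. A call needed a ratio of at least 2, an interval that excludes 1 and at least 20 reads in both libraries together, and a count of 0 was set to 3 reads. The procedure was tested on simulated counts drawn with counting error only. They held no spread between plants and no reads counted more than once, so the test says nothing on these errors. With 1 library per tissue no p-value was computed, and depth was 9563149 and 10285969 reads.

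Members and gene lists were chosen with earlier results of these data known. The 33 lists held 623 genes, of which 547 had a unigene. Named genes were the 10 largest ratios in each direction among *Arabidopsis*-matched unigenes of 200 reads or more, the 10 highest levels per kb in each library, up to 4 called members per list with the most reads, members called against their list, the glucosinolate genes, and all tissue markers with a unigene. Other members were named after their values were seen, to describe a list. Alternatives were scaling by total reads, TMM (edgeR 4.0.16 in R 4.3.3) or the upper quartile, other read minimums, a stricter interval, halved counts and a minimum ratio of 4. A limit to unigenes no longer than their matched gene was added after seeing the data. No sequences are printed.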

Additional observations from a re-analysis of the deposited data

How the results depend on the processing

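No paired analysis was possible because each tissue is 1 library. Scaling by total reads shifted all log2 ratios by -0.68 and gave 7273 lower unigenes and 151 lower cytosolic ribosomal proteins, against 4404 and 99. A minimum ratio of 4 left 3049 unigenes higher, 1843 lower and 7 lower cytosolic ribosomal proteins. With at least 100 reads, 14 plastid and 7 mitochondrial genome unigenes were lower, against 27 and 16. Among unigenes no longer than their matched gene, an alternative chosen after seeing the data, 2685 were higher and 2747 lower, with 56 cytosolic ribosomal proteins, 6 plastid and 6 mitochondrial genome unigenes lower. Under this limit 10400 unigenes were tested in all. The organelle unigenes were 6 of 6 tested in each genome. All had under 20 reads at 7 days, so the lower calls mostly had to follow. TMM scaling gave 4904 higher and 4449 lower, and the upper quartile 4784 and 4604. More members were higher than lower in 19 gene lists other than the tissue markers and lower than higher in 9, and under total reads in 16 and 11. Of 255 named unigenes, 54 lost their call at a ratio of 4, 22 lost and 12 gained it under total reads, 12 lost it with at least 100 reads, 6 with halved counts and 2 with the stricter interval. No named ratio changed direction while called, but no scaling used here could make it do so. A call needs a ratio of at least 2, which is beyond the largest shift of -0.68 in log2. Depth limits unigenes of 20 to 100 reads, whose intervals are the widest.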
